A study of Mus musculus with 12 samples.

Results

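B16F10 cells, a mouse melanoma line of C57BL/6 origin, were incubated with granules released by activated T cells, and their RNA was compared with that of untreated cells of the same line. The comparison rests on 6 of the 12 libraries of the series: 3 from granule-treated cells (Lyso 1 to 3) and 3 from untreated cells (WT 1 to 3), chosen by their labels. The granules came from the culture supernatant of CD8+ T cells that had been taken from spleen and stimulated through CD3 and CD28 in the presence of IL-2. The methods of the study describe concentrating this supernatant on a size filter, while its results describe isolating granules on a density gradient and washing them. The labels give an incubation of 48 hr, while the methods of the study describe a shorter one, and both cannot hold for the same cells. By those methods the treated cells sat on low-adherence plastic coated with poly-lysine and received the granules in DMEM, whereas the plate of the WT cells is not described, so granules, plate and medium cannot be told apart. Cells that had been cultured from tumors that relapsed after immunotherapy (ITF1, ITM and Rel, 1 library each) served as a further untreated background, since those cultures were not given granules. The labels name no separate cultures within a group, so p-values measure the spread between libraries, which may be technical.

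Cytotoxic T cells release granzymes and perforin in membrane-bound granules, and their supernatant also holds cytokines such as interferon-γ. Whether the granule preparation held interferon-γ is not stated in the text of the study. Interferon-γ binds IFNGR1 and IFNGR2, the kinases JAK1 and JAK2 activate STAT factors, and STAT dimers bind GAS elements and switch on IRF1. IRF1, IRF8 and complexes of STAT2 with IRF9 bind ISRE elements of guanylate-binding proteins, antigen-processing genes and antiviral genes. Cytokines that use gp130, such as IL-6 and oncostatin M, signal through STAT3 instead, and both routes are shut down again by SOCS proteins, which STATs induce. Growth factors and cell attachment act on other families: ERK signaling drives EGR1 and its relatives, and SRF and YAP drive actin and matrix genes in spread cells. The members of these families are described here by their roles.

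The promoters below are shown as examples of the roles among the called genes: activators (Irf1, Irf8), inhibitors (Socs1, Socs3), effectors (Igtp, Gbp2, Cxcl10) and a matrix gene (Ccn1). Each line holds the 250 bases before a transcription start in the RefSeq windows of GRCm38.p6, written 5′ to 3′ on the gene's strand. Capitals mark matches to GAS (TTCNNNGAA) in Irf1, Irf8, Socs3 and Igtp, to ISRE (2 GAAA cores 2 bases apart, or 2 TTTC cores for the other strand) in Igtp, Socs1, Gbp2 and Cxcl10, and to the TEAD motif of the YAP partners (GGAATG or its complement CATTCC) in Ccn1. The windows are Irf1 at chr11:53769764-53770013 (plus strand), Irf8 at chr8:120736108-120736357 (plus), Socs3 at chr11:117969367-117969616 (minus), Igtp at chr11:58199306-58199555 (plus), Socs1 at chr16:10785537-10785786 (minus), Gbp2 at chr3:142620413-142620662 (plus), Cxcl10 at chr5:92348890-92349139 (minus) and Ccn1 at chr3:145649986-145650235 (minus). A match to a motif not named here for a gene stays in lower case. Irf1 and Irf8 have 2 windows each, and the window with more matches is shown.
Irf1: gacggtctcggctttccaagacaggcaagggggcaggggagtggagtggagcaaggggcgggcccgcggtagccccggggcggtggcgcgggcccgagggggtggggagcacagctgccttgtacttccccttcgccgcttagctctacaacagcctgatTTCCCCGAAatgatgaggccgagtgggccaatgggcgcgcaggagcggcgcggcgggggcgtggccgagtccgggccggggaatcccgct
Irf8: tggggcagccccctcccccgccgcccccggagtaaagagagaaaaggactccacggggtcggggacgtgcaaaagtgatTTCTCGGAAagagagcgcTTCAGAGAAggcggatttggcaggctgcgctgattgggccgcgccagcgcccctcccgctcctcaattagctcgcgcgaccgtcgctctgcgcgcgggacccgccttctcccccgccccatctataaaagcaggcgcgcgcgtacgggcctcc
Socs3: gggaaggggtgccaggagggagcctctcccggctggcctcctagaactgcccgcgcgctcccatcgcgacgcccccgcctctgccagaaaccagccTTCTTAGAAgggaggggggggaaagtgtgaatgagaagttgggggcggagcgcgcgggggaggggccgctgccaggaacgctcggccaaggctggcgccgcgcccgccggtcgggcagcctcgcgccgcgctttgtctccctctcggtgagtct
Igtp: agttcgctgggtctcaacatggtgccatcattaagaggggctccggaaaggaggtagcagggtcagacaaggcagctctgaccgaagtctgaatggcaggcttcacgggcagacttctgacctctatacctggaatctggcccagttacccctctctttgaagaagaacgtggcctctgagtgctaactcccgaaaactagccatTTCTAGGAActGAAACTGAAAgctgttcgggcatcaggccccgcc
Socs1: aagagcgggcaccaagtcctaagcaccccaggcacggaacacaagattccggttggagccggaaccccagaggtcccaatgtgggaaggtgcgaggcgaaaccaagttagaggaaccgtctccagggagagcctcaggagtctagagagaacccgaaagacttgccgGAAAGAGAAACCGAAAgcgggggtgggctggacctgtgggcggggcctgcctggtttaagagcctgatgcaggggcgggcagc
Gbp2: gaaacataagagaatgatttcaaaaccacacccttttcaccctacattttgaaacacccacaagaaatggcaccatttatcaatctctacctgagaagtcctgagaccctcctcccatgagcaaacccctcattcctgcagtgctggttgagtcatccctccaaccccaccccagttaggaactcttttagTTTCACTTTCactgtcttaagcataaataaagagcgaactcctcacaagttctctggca
Cxcl10: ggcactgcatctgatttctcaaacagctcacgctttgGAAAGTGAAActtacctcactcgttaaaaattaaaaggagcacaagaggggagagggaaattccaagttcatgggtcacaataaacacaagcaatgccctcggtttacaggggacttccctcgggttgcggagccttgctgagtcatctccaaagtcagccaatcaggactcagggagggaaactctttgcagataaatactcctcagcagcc
Ccn1: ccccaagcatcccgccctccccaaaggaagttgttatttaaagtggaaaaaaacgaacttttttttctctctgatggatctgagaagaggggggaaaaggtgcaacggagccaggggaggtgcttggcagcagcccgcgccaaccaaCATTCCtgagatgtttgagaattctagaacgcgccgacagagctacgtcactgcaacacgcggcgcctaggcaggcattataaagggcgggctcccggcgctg

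In Irf1 the GAS match began 90 bases before the start, in Socs3 154 bases before it, and Irf8 held 2 matches, at 171 and 153 bases. Igtp held a GAS match at 45 bases and an ISRE match at 34 bases, and the 2 ISRE matches of Socs1, at 83 and 77 bases, share 4 bases. Among the 10464 tested genes with a window, 7.06% held a GAS, 3.19% an ISRE and 12.8% a TEAD match on either strand, close to the 7.02%, 2.98% and 12.6% of all 32851 windows. Of the 253 genes higher in Lyso with a window, 13.0% held a GAS and 13.8% an ISRE, and of the 60 lower genes 8.33% and 3.33% did. All 10 guanylate-binding and immunity-related GTPases with a window held an ISRE, and 7 of them a GAS. By contrast, 3 of 19 MHC-I and peptide-processing genes held an ISRE and 1 a GAS in these windows. A TEAD match stood in 21.7% of the lower genes, against 10.7% of the higher ones. A match is a run of letters and not a shown binding site, and a window without it says nothing about sites elsewhere.

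The libraries differed in depth, and the control libraries in more than depth. WT 1, WT 2 and WT 3 held 1667398, 2350129 and 16384021 counts on genes, and the Lyso libraries between 10895611 and 12675277, so that 3 counts, the floor for detection, stand for 1.70, 1.27 and 0.177 CPM (library-size-scaled counts, by TMM) in the WT libraries and for at most 0.283 CPM in Lyso. WT 1 stood apart: between its counts and those of WT 3 the chi-square was 20.30 for each degree of freedom, and 4.79 between WT 2 and WT 3, while genes of the amino acid stress response were high in it (Trib3 at 501 CPM, against 11.0 and 11.2). Lyso 1 stood apart from Lyso 2 and Lyso 3 (12.10 and 11.75, against 1.55 between these). WT 3 stood apart in turn by its antiviral genes, described with those genes. Mitochondrial genes took 3.75% to 4.39% of the gene counts in WT and 6.08% to 8.53% in Lyso. Melanocyte genes marked every library as melanoma cells: Tyrp1, an enzyme of melanin synthesis, lay between 8883 and 12406 CPM in WT and between 10099.9 and 10362 CPM in Lyso.

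RNA of lymphocytes was present in Lyso and almost absent from WT. Gzmb, the granule protease granzyme B, had no count in any WT library and 6.03, 6.71 and 5.10 CPM in Lyso, at least 41.5-fold above the floor of 3 counts over the WT group. Cd8a, the co-receptor of cytotoxic T cells, had no WT count either and 2.07, 1.21 and 2.27 CPM in Lyso. B cell RNA appeared with it: Ighm, the heavy chain of IgM, was at 0, 1.27 and 0.177 CPM in WT and at 13.0, 14.3 and 9.39 CPM in Lyso. The 14 T cell markers summed to 6.33 to 12.5 CPM in WT, nearly all of it from Cd247 and Lck, and to 19.7 to 23.6 CPM in Lyso, while 10 of the 14 were at 0 in every WT library. Cd247 and Lck, neither of them called, also gave 5.47 to 6.89 and 5.35 to 6.13 CPM of the Lyso sum. The 12 granule and effector genes summed to 0.413 to 0.566 CPM in WT and to 8.42 to 9.50 CPM in Lyso, where Gzmd, Gzme and Gzmf stayed at 0. The 7 B cell markers reached at most 1.69 CPM in WT and 13.5 to 21.8 CPM in Lyso. Ifng, the gene of interferon-γ, had 0 in WT and 0.189, 0 and 0.405 CPM in Lyso, too little to be tested. In bulk RNA, cells that came over with the granules and RNA within the granules cannot be told apart, nor can more cells of a type and more RNA per cell. The part of this RNA in the gene groups below was not tested.

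**Figure D1:**
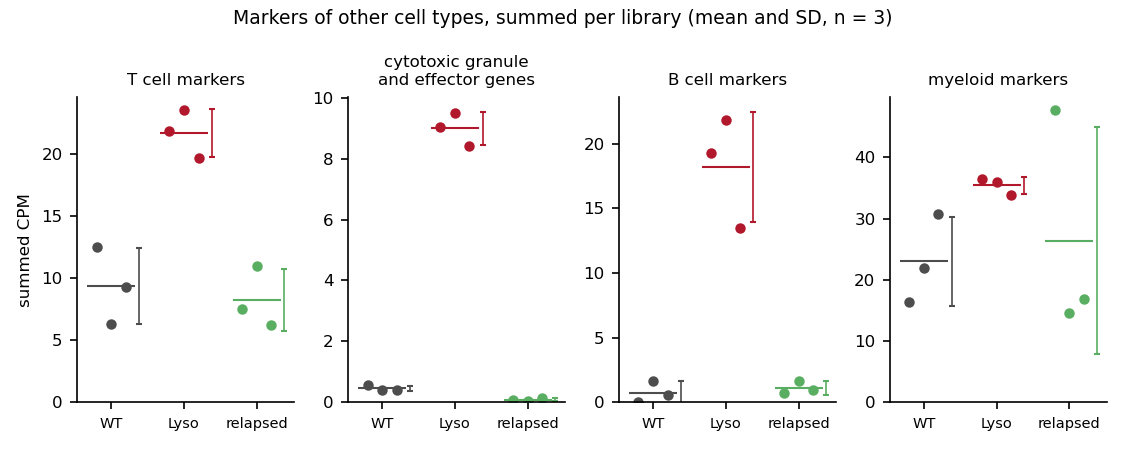
Summed CPM of the markers of T cells, of cytotoxic granules, of B cells and of myeloid cells (vertical axes, starting at 0) in each WT, Lyso and relapsed-line library (points), with the mean and the SD of the 3 libraries of a group. T cell, granule and B cell sums of every Lyso library lie above those of every WT library, at 19.7 CPM or more for T cells, while the myeloid sums of Lyso (33.9 to 36.4 CPM) lie just above the highest WT library (30.8 CPM) and below the highest relapsed line.

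Few genes differed between the groups, most of them upward and by large factors. A gene was called when the adjusted p of edgeR's quasi-likelihood test was below 0.05 and the level differed more than 2-fold in either direction. Of 14924 genes tested, 362 (2.43%) were higher in Lyso than in WT and 86 (0.576%) were lower. These shares are the background of the counts given for every gene list below. The median log2 fold change was 2.06 among the higher genes and -1.80 among the lower genes, and 62 of the higher genes lay above 5. In all 362 higher genes and in 77 of the 86 lower genes the 3 libraries of one group lay wholly above those of the other, which 27.4% of all tested genes did (an exact permutation test of 3 against 3 cannot go below p = 0.1). Many of the higher genes were close to silent in WT, with 68 of the 362 at 3 counts or fewer in every WT library and 25 without any count. The fitted fold change of such genes depends on the prior count of the model, so for named genes with at most 3 counts over all of WT a lower bound or a ratio of counts is given. The counts moved with single libraries, to 236 higher genes without Lyso 1, and to 30 to 39 lower genes without any 1 of the Lyso libraries, 50 without WT 3 and 131 without WT 1.

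**Figure D2:**
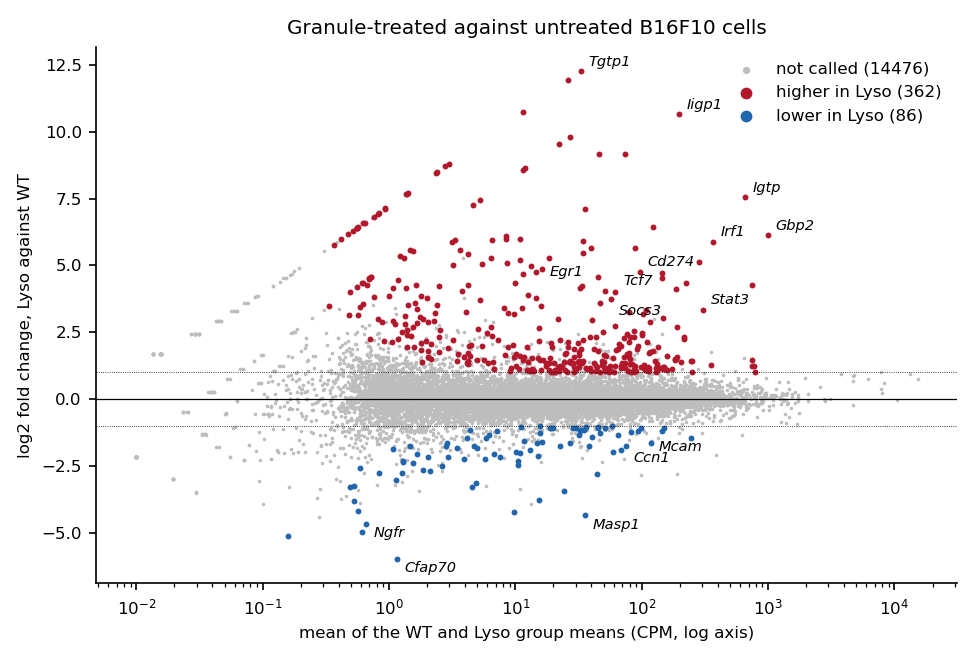
Log2 fold change of Lyso against WT (vertical axis) and mean of the WT and Lyso levels in CPM (horizontal axis, log scale) of the 14924 genes tested; red points are the 362 higher genes, blue points the 86 lower genes, and dotted lines mark a log2 fold change of 1 and -1. The higher genes reach a fitted 12.25 on the log2 scale (Tgtp1, without a WT count) and the lower ones -5.97 (Cfap70), and the oblique line of points at low level is formed by genes without a WT count.

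Stat3, the transcription factor of gp130 cytokines (chr11:100885098-100939540), was the gene with the smallest p. It stood at 47.0, 52.4 and 62.0 CPM in WT and at 554, 555 and 553 CPM in Lyso. The Lyso libraries were almost equal (SD 1.14 CPM, n = 3) and far above every WT library. The log2 fold change was 3.35 (SE 0.18, adjusted p = 2.61e-06). Stat2, a factor of the complex that binds ISREs, moved as far, from 16.4, 8.44 and 28.1 CPM to 199.6, 203 and 198 CPM (log2 fold change 3.35, adjusted p = 8.43e-04). Of the 10 tested JAK and STAT genes 3 rose, where 2.43% of all genes did, and 0 fell, Jak3, a kinase of lymphocyte cytokine receptors, being the other member (log2 fold change 1.14, adjusted p = 0.0380). Jak2 passed the adjusted p with a smaller change (0.64, adjusted p = 0.0178), and Jak1, Tyk2, Stat5b and Stat6 lay between -0.22 and 0.19 without passing.

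The SOCS inhibitors split into members that rose and members that did not pass. Socs3, the inhibitor induced by STAT3 that blocks gp130, was at 10.2, 5.91 and 7.90 CPM in WT and at 104, 109.9 and 105 CPM in Lyso (log2 fold change 3.76, SE 0.27, adjusted p = 2.50e-05). Socs1, the inhibitor of the interferon receptors' JAK kinases, was at 0.566, 2.11 and 5.13 CPM in WT and at 84.0, 89.6 and 90.7 CPM in Lyso (log2 fold change 4.56, SE 0.46, adjusted p = 2.12e-04). Every Lyso library of both genes exceeded every WT library several times over. Cish and Socs2, which STAT5 induces, rose by less, with log2 fold changes of 2.46 (adjusted p = 0.0116) and 1.94 (adjusted p = 0.00612). The 4 members not known as STAT targets, Socs4, Socs5, Socs6 and Socs7, lay between -0.38 and 0.08 and did not pass. The family thus had 4 of 8 members higher, against 2.43% of all genes, and a median log2 fold change of 1.01.

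Receptors for these signals differed little. Ifngr1, the ligand-binding chain for interferon-γ, was at 24.9, 19.0 and 19.2 CPM in WT and at 15.5, 16.1 and 19.0 CPM in Lyso (log2 fold change -0.29, adjusted p = 0.383), and Il6st, which encodes gp130, had a log2 fold change of 0.25 (adjusted p = 0.431). Of 20 tested receptor genes 2 rose, against 2.43% of all genes. Osmr, the oncostatin M receptor that pairs with gp130, went from 7.36, 5.07 and 6.19 CPM to 17.8, 16.4 and 16.4 CPM (log2 fold change 1.45, adjusted p = 0.00745). Il2rb, a chain of the IL-2 receptor found mainly on lymphocytes, was at 3.30 CPM or less in every library and rose by 2.11 (adjusted p = 0.0366). Il2ra, the α chain of activated T cells, had no WT count and at most 1.23 CPM in Lyso, beside the lymphocyte RNA described above.

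Among 34 tested STAT3 target and acute-phase genes 9 rose, where 2.43% of all genes did, and 0 fell, with a median log2 fold change of 0.38, or 0.28 with the members at or near 0 in WT held at their bound. The median was 0.90 against WT 3 alone and 1.14 against WT 1 and WT 2 alone. Besides Stat3, Socs3 and Osmr, these were Bcl6, a transcriptional repressor (2.10, adjusted p = 0.00850), Junb, an AP-1 subunit (1.57, adjusted p = 0.00431), the survival kinases Pim1 and Pim3 (1.11 and 1.17, adjusted p = 0.00873 and 0.00889) and the protease inhibitors Serpina3f and Serpina3g. Serpina3f and Serpina3g had no count in WT and 2.43 to 3.11 and 0.972 to 1.23 CPM in Lyso, at least 19.2-fold and 7.72-fold above the floor. Several much-cited STAT3 targets did not pass: Myc, Mcl1, Bcl2l1, Birc5 and Ccnd1 lay between -0.11 and 0.31 on the log2 scale. The liver acute-phase genes Saa3, Hp, Lbp and C3 stayed at 0.279 CPM or less in every WT and Lyso library, close to the floor.

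**Figure D3:**
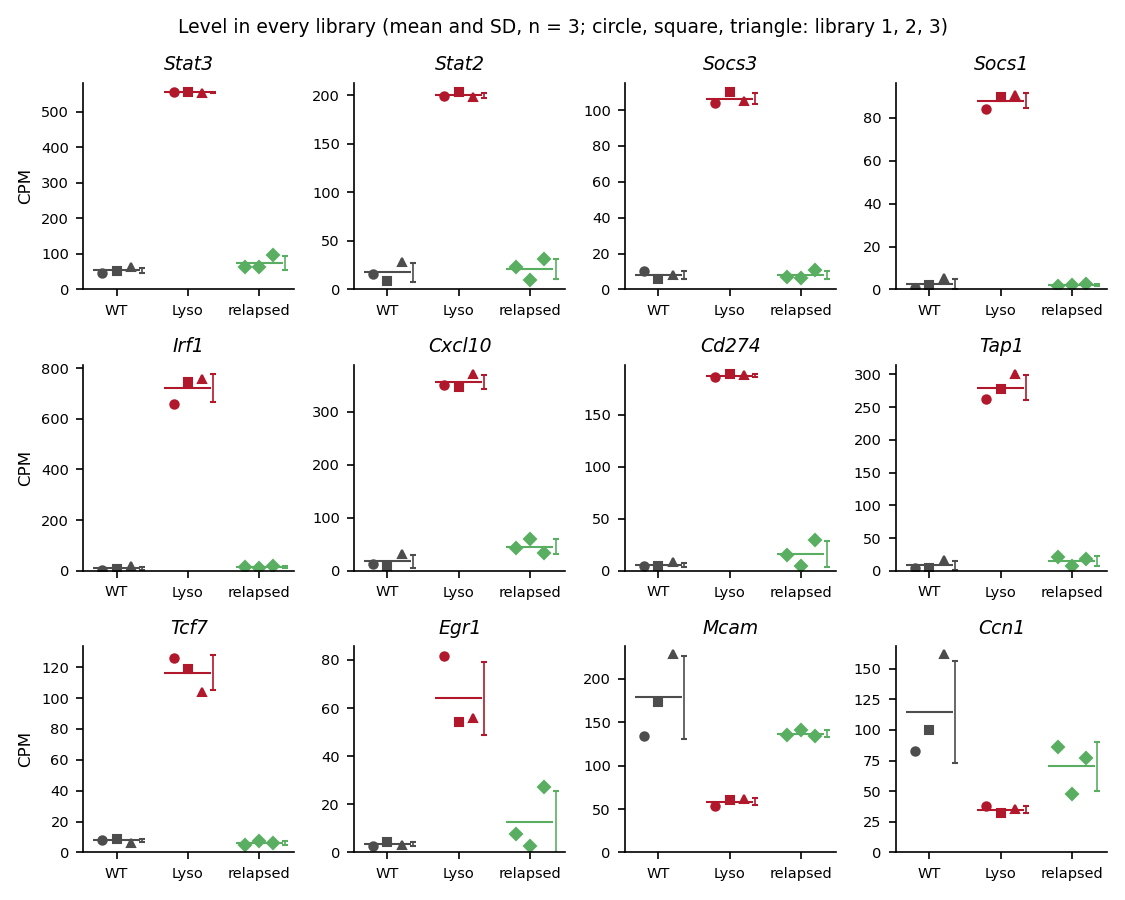
CPM of 12 genes (vertical axes, starting at 0) in each WT, Lyso and relapsed-line library (points), with the mean and the SD of the 3 libraries. For the 10 genes from Stat3 to Egr1 every Lyso library lies above every other library shown, and for Mcam and Ccn1 below; for Stat3 the Lyso libraries span 553 to 555 CPM and the WT libraries 47.0 to 62.0 CPM.

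The interferon-inducible GTPases, which attack the vacuoles of intracellular microbes, held the largest differences of all lists. All 17 tested members rose, against 2.43% of all genes, with fitted log2 fold changes from 2.87 (Gbp3) upward and a median of 7.12, or 6.03 with the 5 members at or near 0 in WT held at their bound. They sit in a few clusters: Gbp2, Gbp3, Gbp5 and Gbp7 on chromosome 3, Gbp4, Gbp6, Gbp9, Gbp10 and Gbp11 on chromosome 5, Irgm1, Irgm2, Igtp, Tgtp1, Tgtp2 and Gm12250 on chromosome 11, and Iigp1 and Gm4951 on chromosome 18. Gbp2, which gathers on such vacuoles, was at 5.66, 6.33 and 57.6 CPM in WT and at 1866, 1989 and 2026 CPM in Lyso (log2 fold change 6.14, SE 0.98, adjusted p = 0.00326). Igtp, also called Irgm3, was at 2.26, 1.27 and 10.9 CPM in WT and at 1246, 1306 and 1347 CPM in Lyso (log2 fold change 7.56, SE 1.04, adjusted p = 0.00114). Irgm1, a regulator of the other GTPases, went from 12.5, 24.9 and 167 CPM to 1354, 1419 and 1455 CPM (log2 fold change 4.25, SE 0.91, adjusted p = 0.0182). In each of these, WT 3 was the highest control and the lowest Lyso library was still several times above it.

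Other members went from silence to a high level. Iigp1, an effector GTPase, had 0, 0 and 0.295 CPM in WT and 364, 389 and 421 CPM in Lyso. Tgtp1 had no WT count and 61.2, 69.1 and 66.1 CPM in Lyso, at least 461-fold above the floor, and Gbp10 was at least 33.2-fold above it. The gene model Gm12185, which overlaps Tgtp1 on the same strand, had no WT count and 54.3, 51.8 and 50.5 CPM in Lyso, at least 366-fold above the floor. Gbp4 had 1 count in all of WT against 1498 in Lyso, a ratio of 938 (95% counting interval 168 to 37069). Gbp11 had the smallest p of the family, with 0, 0.422 and 0.177 CPM in WT and 13.3, 14.0 and 11.1 CPM in Lyso (4 counts in all of WT, fitted log2 fold change 5.96, SE 0.47, adjusted p = 6.04e-05). Copies of this family resemble each other, reads that match several places are not in the counts, and several overlap another gene on the same strand (Tgtp1 and Gm12185, Igtp and Irgm2, Gbp4 and Gbp9, and 29.0% and 46.3% of the exonic bases of Gbp6 and Gbp10), so the levels of single members are uncertain, above all Tgtp1 and Tgtp2.

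Of 9 interferon regulatory factors 4 rose, against 2.43% of all genes. Irf1, the factor that interferon-γ induces, was at 4.53, 8.02 and 17.9 CPM in WT and at 658, 746 and 758 CPM in Lyso (log2 fold change 5.89, SE 0.57, adjusted p = 1.93e-04). Irf8, known from myeloid and B cells, had 1 count in WT against 1808 in Lyso, a ratio of 1132 (95% counting interval 203 to 44735), with 51.8, 54.9 and 54.3 CPM in the Lyso libraries. Neither gene had an overlapping library. The level of Irf8 stands beside a summed 13.5 to 21.8 CPM of B cell markers and 33.9 to 36.4 CPM of myeloid markers in the same libraries. Irf2, a competitor of IRF1, rose by 1.64 (adjusted p = 2.56e-04), and Irf4, a factor of lymphocytes, by 2.57 (adjusted p = 0.0490) at no more than 2.64 CPM.

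Of 22 tested genes of MHC-I and its peptide loading 14 rose, where 2.43% of all genes did, and 0 fell, and the median log2 fold change was 2.61. The classical heavy chains were among the 8 that were not called, and against WT 3 alone 5 of the 22 were called. Nlrc5, the transactivator of MHC-I genes, was at 0.566, 2.11 and 4.48 CPM in WT and at 164, 186 and 173 CPM in Lyso (log2 fold change 5.66, SE 0.65, adjusted p = 4.25e-04). The peptide transporter gene Tap1 was at 5.09, 4.64 and 16.1 CPM in WT and at 262, 277 and 300.2 CPM in Lyso (log2 fold change 4.70, SE 0.64, adjusted p = 0.00111), and its partner Tap2 rose by 4.15 (adjusted p = 0.0102). The 3 inducible proteasome subunits followed, Psmb8 by 6.10, Psmb9 by 4.87 and Psmb10 by 3.27 (adjusted p = 0.0130, 0.0140 and 0.00320). Tapbpl, an editor of MHC-I peptides, had the smallest p of the list (log2 fold change 3.61, SE 0.32, adjusted p = 1.04e-04), with 6.23, 7.18 and 7.43 CPM in WT and 87.1, 91.7 and 83.0 CPM in Lyso. Erap1, which trims peptides, rose by 2.54 (adjusted p = 9.89e-04).

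The classical chains and B2m had smaller fold changes and were not called. H2-K1 was at 32.8, 8.87 and 17.0 CPM in WT and at 42.4, 44.2 and 44.1 CPM in Lyso (log2 fold change 1.23, adjusted p = 0.397). H2-D1 was at 125, 76.0 and 147 CPM in WT and at 151, 147 and 156 CPM in Lyso (log2 fold change 0.37, adjusted p = 0.740). B2m, the light chain, was at 337, 233 and 492 CPM in WT and at 789.7, 698 and 736 CPM in Lyso (log2 fold change 1.06, adjusted p = 0.253). In each of these genes every Lyso library lay above every WT library, as in 15.8% of all tested genes. The WT libraries were spread widely. The relapsed lines, which entered the same fit, were spread more widely still (SD 62.2 CPM for H2-K1 and 437 CPM for B2m). A missing call is thus not a shown lack of change. H2-K1 and H2-D1 share sequence, so reads that match both are missing from their counts. H2-T23, a non-classical chain, rose by 4.34 (adjusted p = 0.00538), and H2-Q6 and H2-Q7 had no WT count and reached at most 1.40 CPM.

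In the MHC-II group the regulator was called and none of its targets was. Ciita, the transactivator of MHC-II, had 1 count in WT against 808 in Lyso, a ratio of 506 (95% counting interval 90.5 to 20006), with 23.2, 23.3 and 25.3 CPM in Lyso, and was the only 1 of 8 tested genes called. Cd74, the invariant chain, had 1.13, 1.69 and 1.0 CPM in WT and 7.83, 7.92 and 3.97 CPM in Lyso (log2 fold change 2.52, adjusted p = 0.217). The chain gene H2-Aa had 0, 1.27 and 0 CPM in WT and 2.26, 2.24 and 0.972 CPM in Lyso, and H2-Ab1 and H2-Eb1 were as low. B cells express these chains, their markers summed to 13.5 to 21.8 CPM in Lyso, and their part in these values was not tested.

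The antiviral genes, targets of type I as well as type II interferon, depended on which control library was used. All 29 tested members were higher in Lyso than in WT by their fitted values, with a median log2 fold change of 1.82, but 9 passed the threshold. In all 29, WT 3 was the highest of the 3 controls, which was the case for 28.9% of all tested genes. Isg15, a ubiquitin-like modifier, was at 5.09, 3.80 and 48.0 CPM in WT and at 39.2, 48.4 and 53.9 CPM in Lyso (log2 fold change 1.04, adjusted p = 0.470). Usp18, which removes ISG15, was at 1.70, 0.422 and 40.8 CPM in WT and at 26.6, 30.0 and 36.0 CPM in Lyso. For these genes WT 3 lay among or above the Lyso libraries. Against WT 3 alone the median of the list was 0.98 and 3 members were called, and against WT 1 and WT 2 alone it was 4.09 and 23 were called. Why WT 3 was higher was not tested.

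The 3 members called against WT 3 alone were Zbp1, Samhd1 and Mx1. Zbp1, a sensor of nucleic acids that can start necroptosis, was at 0, 0 and 1.53 CPM in WT and at 70.7, 68.3 and 63.5 CPM in Lyso (log2 fold change 5.91, adjusted p = 4.25e-04, and 5.44 against WT 3 alone, adjusted p = 0.0121). Samhd1, a dNTP hydrolase that restricts viruses, rose by 1.81 (adjusted p = 3.01e-04) and by 1.63 against WT 3 alone (adjusted p = 0.0105). Mx1, a dynamin-like restriction factor, rose by 2.99 (adjusted p = 0.00305) and by 2.26 against WT 3 alone (adjusted p = 0.00885). Parp14, Dtx3l and Parp9, an ADP-ribosylation module, had log2 fold changes of 4.35, 3.18 and 3.03 with all controls, and 3.39, 2.43 and 2.04 against WT 3 alone, where none was called (adjusted p = 0.0840, 0.0510 and 0.0889). Adar and Eif2ak2, which edit and sense double-stranded RNA, shrank from 1.10 and 1.42 to 0.45 and 0.59 against WT 3 alone.

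Of 8 tested checkpoint ligands 2 rose, where 2.43% of all genes did. Cd274, which encodes PD-L1, was at 4.53, 5.07 and 8.37 CPM in WT and at 186, 189 and 188 CPM in Lyso (log2 fold change 4.76, SE 0.61, adjusted p = 7.83e-04). Its Lyso libraries differed by an SD of 1.25 CPM (n = 3), and 14.1% of its exonic bases lie opposite another gene, so a share of its reads could belong to that gene. Tnfrsf14, the HVEM receptor, rose by 3.53 (adjusted p = 0.00357) from at most 0.531 CPM to at most 5.56 CPM.

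Of 20 tested chemokine and cytokine genes 4 rose, against 2.43% of all genes. Cxcl10, a chemokine that draws T cells, was at 13.0, 8.44 and 32.0 CPM in WT and at 351, 346 and 371 CPM in Lyso (log2 fold change 4.13, SE 0.43, adjusted p = 2.56e-04). Cxcl9, a ligand of the same receptor, had 1 count in WT and 97 in Lyso, a ratio of 60.7 (95% counting interval 10.6 to 2423). Cx3cl1, a membrane-bound chemokine, rose by 3.48 (adjusted p = 4.25e-04), and Csf1, the growth factor of macrophages, by 2.34 (adjusted p = 7.33e-04). The median of the 20 was 0.63, or -0.16 with the 11 members at or near 0 in WT held at their bound.

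In the NF-kB family 1 of 14 tested members rose, against 2.43% of all genes, and the median log2 fold change was 0.24. Nfkbiz, an atypical inhibitor that modulates NF-kB targets, was that member, from 5.66, 5.07 and 4.48 CPM to 13.9, 14.5 and 14.5 CPM (log2 fold change 1.56, adjusted p = 6.48e-04). Nfkb1, the p105 subunit, had a log2 fold change of -0.27 (adjusted p = 0.201). Complement genes went both ways, with 2 of 18 higher and 1 lower: C4b rose from at most 0.566 CPM to 21.8, 22.1 and 21.1 CPM (log2 fold change 5.98, adjusted p = 8.43e-04), C2 rose by 1.24 (adjusted p = 0.0366), and Masp1, a protease of the lectin pathway, fell. Masp1 was at 31.1, 50.2 and 121 CPM in WT and at 3.68, 3.17 and 3.56 CPM in Lyso (log2 fold change -4.34, SE 0.43, adjusted p = 2.11e-04). Serpinb9, the inhibitor of granzyme B, rose by 1.74 (adjusted p = 0.0182), with 5.66, 8.44 and 17.4 CPM in WT and 40.4, 38.0 and 42.3 CPM in Lyso.

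Egr1, the growth-factor-induced zinc-finger factor (chr18:34859823-34864984), rose, while most of its class was not called. It was at 2.83, 4.22 and 3.24 CPM in WT and at 81.7, 54.3 and 56.0 CPM in Lyso (log2 fold change 4.24, SE 0.72, adjusted p = 0.00496). Every Lyso library was far above WT, with Lyso 1 the highest. Of 28 tested immediate-early genes 5 rose and 1 fell, where 2.43% and 0.576% of all genes did, with a median of 0.33. In 12 of the 28 every Lyso library lay above every WT library and in 4 below, against 15.8% and 11.6% of all tested genes. The mRNA-decay factor Zfp36 rose by 2.97 (adjusted p = 4.73e-04), Egr2 by a fitted 3.87 from 4 counts in all of WT (adjusted p = 0.0160), the nuclear receptor Nr4a3 by 2.13 (adjusted p = 0.0325) and Junb as given above. Fos had 12.5, 6.33 and 9.38 CPM in WT and 41.5, 37.5 and 39.9 CPM in Lyso and missed the threshold (log2 fold change 2.10, adjusted p = 0.0573). Jun, Ier2, Ier3, Dusp1 and Myc lay between -0.38 and 0.37 without passing. The gene that fell was Ccn1, described below with the YAP targets.

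Feedback genes of the ERK pathway gave 3 of 22 higher, against 2.43% of all genes, and 0 lower. Dusp6, the phosphatase of ERK, was at 101, 87.0 and 97.7 CPM in WT and at 274, 286 and 296 CPM in Lyso (log2 fold change 1.58, SE 0.30, adjusted p = 0.00996). Dusp2 rose by 1.43 (adjusted p = 0.0347), and Nab2, the corepressor of EGR1, by 1.12 (adjusted p = 0.0102), although 42.2% of its exonic bases lie opposite another gene. Spry4, Etv1 and Etv4, outputs of the same pathway, had log2 fold changes of 1.56, 1.55 and 1.66 without passing (adjusted p = 0.148, 0.0687 and 0.146). None of the 8 tested FGF ligands and receptors was called. Fgfr3 went from 1.70, 13.1 and 14.9 CPM to 25.6, 30.0 and 28.1 CPM (log2 fold change 1.32, adjusted p = 0.249), WT 1 being far below the other controls.

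Isolated members of other signaling families stood among the strongest calls. Tcf7, the T cell factor TCF1 that acts with β-catenin, was at 7.92, 8.87 and 6.37 CPM in WT and at 126, 119 and 104 CPM in Lyso (log2 fold change 4.0, SE 0.28, adjusted p = 2.50e-05). T cells express Tcf7, and the 14 T cell markers summed to 19.7 to 23.6 CPM in the Lyso libraries. Of that sum, Cd247 and Lck, neither of them called, gave 5.47 to 6.89 and 5.35 to 6.13 CPM. The part of T cell RNA in the rise of Tcf7 was not tested. Dkk3, a secreted relative of Wnt inhibitors, rose by 1.73 (adjusted p = 0.0119), and the remaining 16 of 18 Wnt pathway genes were not called. Ralgds, the exchange factor that links RAS to RAL, was at 35.7, 32.1 and 29.6 CPM in WT and at 186, 166 and 156 CPM in Lyso (log2 fold change 2.40, SE 0.20, adjusted p = 6.72e-05). It was the only 1 of 20 tested RAL pathway genes called.

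Of the 12 higher genes with the smallest p, 5 belonged to none of the lists. Sbno2, a corepressor that IL-10 and STAT3 induce, was at 40.2, 51.1 and 68.3 CPM in WT and at 223, 210.4 and 208 CPM in Lyso (log2 fold change 1.97, adjusted p = 1.91e-04). Maff, a small MAF factor, rose by 2.19 (adjusted p = 1.93e-04), Rnf19b, a ubiquitin ligase of cytotoxic cells and macrophages, by 2.43 (adjusted p = 2.11e-04), and Crem, which modulates cAMP responses, by 2.31 (adjusted p = 2.11e-04). Ttc39b, which governs the turnover of the sterol receptor LXR, went from 93.4, 63.8 and 78.1 CPM to 233, 247 and 243 CPM (log2 fold change 1.62, adjusted p = 2.11e-04). Further calls chosen after their values were seen were Prdm1, the repressor BLIMP1, with no WT count and 5.66, 3.63 and 5.02 CPM in Lyso, Tnfsf10, the death ligand TRAIL (4.26, adjusted p = 7.33e-04), Il18bp, an interferon-γ-induced decoy of IL-18 (3.21, adjusted p = 0.00312), and Myd88, the adaptor of Toll-like receptors (1.39, adjusted p = 3.45e-04).

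Among the metabolic lists, cholesterol synthesis held the most calls. All 23 genes had every Lyso library above every WT library, where 15.8% of all tested genes did, and the median log2 fold change was 0.87. By the threshold 5 rose, and 10 passed the adjusted p alone, against 3.50% of all genes. Mvd, which makes isopentenyl diphosphate, was at 18.1, 25.3 and 25.9 CPM in WT and at 63.3, 58.5 and 60.7 CPM in Lyso (log2 fold change 1.36, SE 0.15, adjusted p = 3.45e-04). Lss, the lanosterol synthase, rose by 1.24 (adjusted p = 8.12e-04), Nsdhl by 1.32 (adjusted p = 0.00491), Fdps by 1.03 (adjusted p = 0.00644) and Insig1, a sterol sensor, by 1.14 (adjusted p = 0.0281). WT 1 was the lowest control for most of these genes, and against WT 3 alone the median was 0.65 and 3 members were called. Fatty acid synthesis had 0 of 13 members called and a median of 0.38.

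Of 33 genes of glycolysis and the hypoxia response 1 rose and 1 fell: Hk2, hexokinase 2, by 1.30 (adjusted p = 0.00508), and Ndrg1, a stress gene, fell by 1.27 (adjusted p = 0.00508). None of the 28 nuclear oxidative phosphorylation subunits was called (median 0.11). Of 13 subunits encoded in mitochondria 7 were tested. All 7 were higher in every Lyso library than in every WT library, as were 15.8% of all tested genes. Their median was 0.91, and 0.75 against WT 3 alone. The adjusted p was passed by 4, against 3.50% of all genes, but the fold by none. Mt-Co1 was at 8369, 8499 and 10341 CPM in WT and at 20374, 15995 and 16370.0 CPM in Lyso (log2 fold change 0.95, adjusted p = 0.0336). Lyso 1 was the highest in each of the 7, and it was also the library with the largest mitochondrial share.

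Death genes rose in part. Of 32 tested BCL2 family, caspase and death receptor genes 5 were higher, against 2.43% of all genes, and 0 lower. Tnfrsf1a, the TNF receptor, was at 157, 109 and 133 CPM in WT and at 392, 329.9 and 354 CPM in Lyso (log2 fold change 1.43, SE 0.18, adjusted p = 6.03e-04). Gsdmd, the pore protein of pyroptosis, rose by 2.62 (adjusted p = 0.0201), Mlkl, the pore protein of necroptosis, by 1.22 (adjusted p = 0.0252), and Bmf, a BH3-only protein, by 1.60 (adjusted p = 0.0339). Ripk1, a kinase of the TNF receptor complex, passed the adjusted p with a smaller change (0.77, adjusted p = 0.00141). No p53 target was called among 19 (median 0.11), and no DNA replication or mitosis gene among 30 (median -0.13).

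The lower genes with the smallest p came from several families. Mcam, the melanoma cell adhesion molecule, was at 134, 173 and 229 CPM in WT and at 53.5, 60.4 and 61.5 CPM in Lyso (log2 fold change -1.62, SE 0.16, adjusted p = 2.11e-04). Prickle1, a planar polarity protein, was at 90.6, 123 and 109 CPM in WT and at 29.0, 28.1 and 30.8 CPM in Lyso (log2 fold change -1.88, SE 0.16, adjusted p = 6.72e-05). In neither did a library overlap. Phldb2, a cortical anchor at adhesions, fell by 1.09 (adjusted p = 0.00129), Postn, a matrix protein that also marks fibroblasts, by 2.17 (adjusted p = 0.00320), Ccdc80, a secreted matrix-binding protein, by 2.22 (adjusted p = 0.00281), Krt80, a keratin, by 2.45 (adjusted p = 7.12e-04), and Nek10, a kinase, by 1.97 (adjusted p = 3.05e-04). Tg, the thyroid hormone precursor, went from 43.0, 36.3 and 26.0 CPM to 9.71, 10.2 and 10.3 CPM (log2 fold change -1.76, adjusted p = 0.00201). Cfap70, a ciliary gene, had the lowest log2 fold change of the lower genes, with 1.70, 1.69 and 3.48 CPM in WT and 0, 0 and 0.0810 CPM in Lyso.

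A list of SRF targets and actin cytoskeleton genes and a list of YAP targets were drawn up after these values were seen and are given as a description only. Of 23 tested SRF and actin genes 7 fell, where 0.576% of all genes did, and 0 rose, with a median log2 fold change of -0.87, and of 19 tested YAP targets 3 fell and 0 rose, with a median of -0.48. Ccn1, a matrix protein that YAP and SRF both drive, was at 82.6, 99.6 and 162 CPM in WT and at 37.5, 32.0 and 35.5 CPM in Lyso (log2 fold change -1.74, SE 0.28, adjusted p = 0.00347). Filip1l, a filamin-interacting protein, fell by 2.02 (adjusted p = 7.50e-04), Synpo, an actin bundler, by 1.33 (adjusted p = 0.0166), Limk1, the kinase of cofilin, by 1.08 (adjusted p = 0.0185), and Rhob, a small GTPase, by 1.18 (adjusted p = 0.0295). Ajuba, a LIM protein of junctions, went from 65.7, 56.6 and 58.3 CPM to 29.0, 28.7 and 30.9 CPM (log2 fold change -1.02, adjusted p = 8.37e-04). Core actin genes did not pass: Actb, Actg1 and Vcl had log2 fold changes of 0.16, 0.38 and 0.35. Over the alternative settings the number that fell ranged from 1 to 8 for the SRF list and from 1 to 7 for the YAP list. Against WT 3 alone the medians were -1.22 for the SRF and -0.78 for the YAP list, and against WT 1 and WT 2 alone -0.47 and 0.05. The TEAD letters shown above for Ccn1 stood in 6 of the 13 YAP targets with a promoter window (46.2%), against 12.8% of all tested genes with one. These 13 were taken whether or not they fell. TEAD factors are the partners of YAP, so a list of YAP targets is apt to hold their motif. The share therefore says nothing about the changes in Lyso.

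The list of cadherin junctions and actomyosin gave 1 of 22 higher and 1 lower. Rnd3, a small GTPase that loosens actin fibres, rose by 1.41 (adjusted p = 0.0300), and Myl9, the light chain of myosin II, fell by 2.38 (adjusted p = 0.0305) from at most 3.95 CPM. Cdh1 and Rock1 were not called, and Cdh2, N-cadherin, had a log2 fold change of -0.75 (adjusted p = 0.166). Of 25 integrin and focal adhesion genes Itgav rose by 1.12 (adjusted p = 0.0254) and Itgb5, which pairs with it, fell by 1.20 (adjusted p = 0.0375). Of 22 collagen and matrix protease genes Col1a1 fell by 1.76 (adjusted p = 0.0202) from 4.72 CPM or less.

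Lists of pigment, organelle and stress genes held few calls. No melanocyte gene was called among 20, with a median of 0.40. Trpm1, a melanocyte channel, was at 305, 113 and 69.9 CPM in WT and at 575, 528 and 524 CPM in Lyso (log2 fold change 1.77, adjusted p = 0.105). No lysosome or autophagy gene was called among 30 (median 0.19), and none of the 27 ESCRT, annexin and calpain genes that repair membranes (median -0.09). Hspa1a, an inducible heat shock gene, was 1 of 21 chaperones called lower, but it had 10 counts in all of WT and none in Lyso. The 23 genes of the ATF4 and amino acid response had a median of -0.89 and no call, and the 16 chaperones of the endoplasmic reticulum a median of -0.63 and no call. Against WT 3 alone the medians were 0.30 for the ATF4 list and -0.10 for the chaperones, WT 1 being the control in which Trib3 and its relatives were high.

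**Figure D4:**
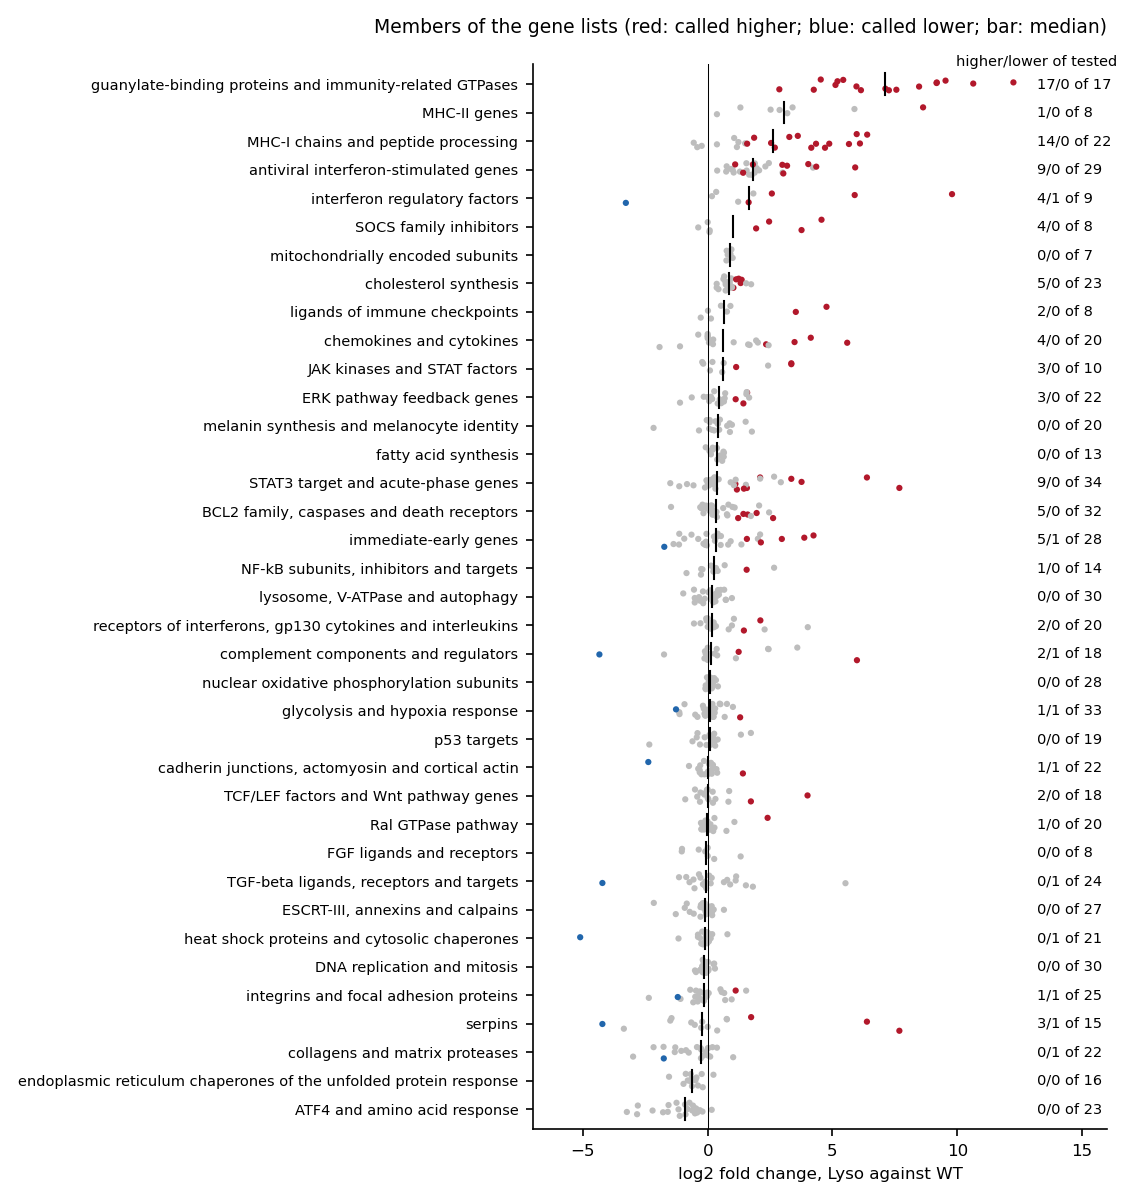
Log2 fold change of Lyso against WT (horizontal axis) of the tested members of 37 gene lists (rows, ordered by their median); red points are called higher, blue points lower, grey points not called, and the black bar is the median of the list. The GTPases lie wholly to the right, with 17 of 17 called and a median of 7.12, while the ATF4 list at the bottom has a median of -0.89 and 0 of 23 called.

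Since WT 1 and WT 2 were shallow, every gene was also compared with WT 3 alone, the control of similar depth. WT 3 is also 1 of the 3 controls behind the calls, so the comparisons are not independent. As the libraries of all 362 higher and 77 of the 86 lower genes did not overlap, the direction of these genes against WT 3 was given in advance. The fit took WT 3 to vary like the other groups. In this fit of 16079 genes 173 (1.08%) were higher and 88 (0.547%) lower. All 362 higher genes kept their direction, 327 of them with a log2 fold change over 1, which 6.49% of the genes tested against all WT libraries had, and 156 were called. All 86 lower genes kept theirs, 80 of them under -1, where the background was 3.74%, and 48 were called. Stat3 (3.15, adjusted p = 0.00108), Socs3 (3.74, adjusted p = 0.00193), Irf1 (5.32, adjusted p = 0.0106), Cd274 (4.47, adjusted p = 0.0354) and Tcf7 (4.17, adjusted p = 0.00140) held, as did Masp1 (-5.13, adjusted p = 8.73e-06), Mcam (-1.98, adjusted p = 5.67e-05) and Prickle1 (-1.91, adjusted p = 0.00121). Egr1 had a similar size of change without passing (4.29, adjusted p = 0.0741). Gbp2 (5.08, adjusted p = 0.0710), Igtp (6.89, adjusted p = 0.0508) and Irgm1 (3.06, adjusted p = 0.182) had smaller changes than against all controls and did not pass either. By list, the median log2 fold change against WT 3 alone was 6.74 for the GTPases, 2.11 for the MHC-I genes and 0.98 for the antiviral genes. In all 17 GTPases every Lyso library lay above WT 3, against 35.2% of all tested genes, though most of the 17 were not called. That position follows from their WT and Lyso libraries not overlapping.

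Another 17 higher and 40 lower genes were called against WT 3 alone and not against all controls, and the lower ones included contractile and vascular genes, chosen after their values were seen: Tnnt2, a troponin, fell by 2.68 (adjusted p = 0.00518), Angpt2, a ligand of the vessel receptor TIE2, by 1.52 (adjusted p = 0.00193), Cnn2, a calponin, by 1.71 (adjusted p = 0.0297), and Sparc, a matrix protein, by 1.37 (adjusted p = 0.0482). WT 1 was low in each of these, for example at 11.3 CPM of Angpt2 against 54.0 and 77.4 CPM in WT 2 and WT 3 and 26.0 to 28.2 CPM in Lyso. Casp4, an inflammatory caspase, rose by 2.93 (adjusted p = 0.0239), with 7.92 CPM in WT 1, near the 8.49 to 10.3 CPM of Lyso.

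**Figure D5:**
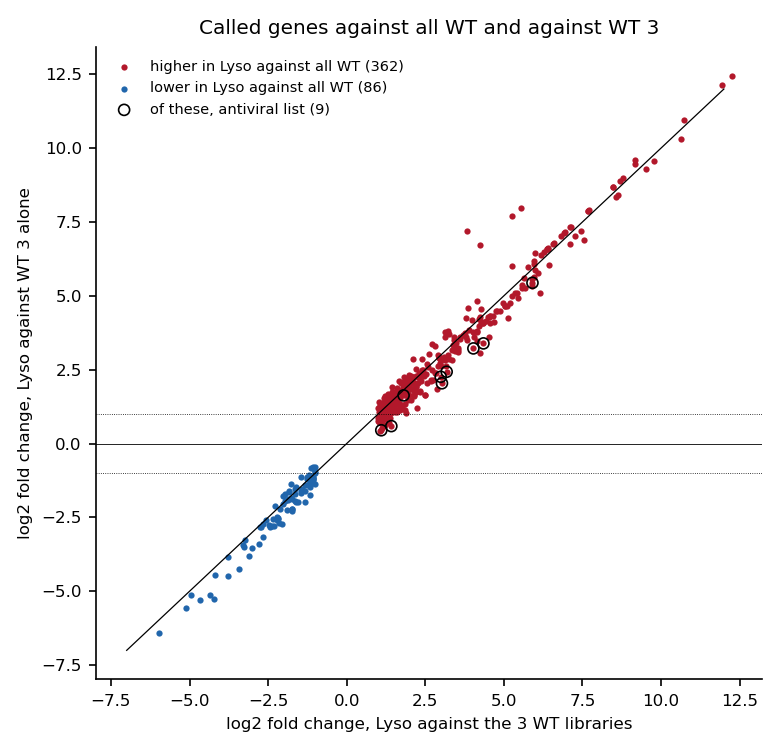
Log2 fold change against all 3 WT libraries (horizontal axis) and against WT 3 alone (vertical axis) of the 362 higher (red) and 86 lower genes (blue); the diagonal marks equal values, dotted lines mark 1 and -1, and circles mark the 9 called antiviral genes. All points keep their sign, WT 3 being 1 of the 3 controls of the horizontal axis. The circled genes lie below the diagonal, Adar falling from 1.10 to 0.45.

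The relapsed lines gave a second untreated background at even depth. Against them 479 genes (3.21%) were higher in Lyso and 155 (1.04%) lower, in a comparison that shares the Lyso libraries with the one above. Stat3 was at 63.8, 61.8 and 96.7 CPM in ITF1, ITM and Rel, and the log2 fold change of Lyso against them was 2.90 (adjusted p = 3.02e-06). Socs3 was at 7.14, 6.53 and 10.6 CPM (3.71, adjusted p = 5.64e-06), Irf1 at 17.2, 12.1 and 17.5 CPM (5.53, adjusted p = 8.26e-05) and Tcf7 at 4.99, 7.19 and 6.09 CPM (4.24, adjusted p = 3.02e-06). All of these lay near WT and far below Lyso. Egr1 was at 7.60, 2.46 and 27.4 CPM and the difference was smaller (2.36, adjusted p = 0.0214). Against these lines 20 of 29 antiviral genes, all 17 GTPases and 15 of 22 MHC-I genes were called.

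Of the 86 genes lower than in WT, 36 were also called lower against the relapsed lines, and of the 362 higher genes 276 were also called higher. Of the SRF and actin genes 3 of 23 were called lower against the lines, and of the YAP targets 1 of 19, where 1.04% of all genes were. Some genes lower than in WT were not lower than in the lines to the same degree. Masp1, at 10.7, 10.4 and 10.6 CPM in the lines, had a log2 fold change of -1.60 against them (adjusted p = 0.0339), and Itgb5, at 9.37, 9.11 and 4.49 CPM, was higher in Lyso (1.35, adjusted p = 0.0150). Prickle1, at 180.3, 134 and 126 CPM, fell by 2.32 (adjusted p = 5.64e-06) and Ndrg1, at 173, 96.2 and 113 CPM, by 2.21 (adjusted p = 8.26e-05). H2-K1 was at 79.9, 12 and 136 CPM in the lines, a wider spread than the 42.4 to 44.2 CPM of Lyso. Mvd and Lss were higher than in the lines by 1.16 and 0.92 (adjusted p = 3.33e-04 and 0.00286), and 3 of 23 cholesterol genes passed both limits.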

How the data were processed

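RNA of 12 B16F10 libraries was sequenced. The authors trimmed adaptors with fastp 0.19.6, aligned the reads to GRCm38 with STAR 2.7.1a and deposited raw counts per gene without normalization. The strand setting and annotation release are not given in the sources used here, and the authors analysed their counts with DESeq2 1.24.0. The 4 leading rows, which hold unassigned reads, were dropped, and 36.2% to 39.4% of the reads of a library lay on genes. Symbols came from GENCODE M21, which holds 54165 of 54232 identifiers. Genes opposite or overlapping another gene are uncertain.

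Counts of all 12 libraries were fitted together with edgeR 4.0.16 in R 4.3.3 (glmQLFit, glmQLFTest, TMM, filterByExpr by group), with Benjamini-Hochberg adjustment. Calls needed an adjusted p below 0.05 and a change of more than 2-fold. CPM are counts scaled by TMM. Each gene list is described by its calls and median. Ratios with 1 to 3 WT counts carry 95% counting intervals, and intervals and floors cover counting error only. Scripts were tested on simulated data.

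Members, lists and tests were chosen with earlier results of these data known. The genes named were Stat3 and Egr1, for either direction the 12 called genes of smallest p without overlapping libraries (gene models without a symbol left out), up to 4 called members of each list (or 2 abundant members), the largest and smallest changes, and others chosen after their values were seen. Alternatives were DESeq2 1.42.0, other scalings and filters, glmTreat, a fit of only WT and Lyso, a replicate block, either depth class of WT as control, and each library left out. Tumor libraries entered only the fit. A few genes are not reported here.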

Additional observations from a re-analysis of the deposited data

Results flagged for a closer look

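RNA of cell types other than melanoma appeared in the Lyso libraries and exceeded its level in each of the WT libraries. The T cell markers summed to 19.7 CPM in the lowest Lyso library against 12.5 CPM in the highest WT library, and the granule and effector genes to 8.42 CPM against 0.566 CPM. Cd247 and Lck, neither of them called, made up a large part of the T cell sum in both groups. The B cell markers summed to 13.5 CPM in the lowest Lyso library against 1.69 CPM in the highest WT library. Xist, the RNA of the silenced X chromosome of female cells, was at 1.30 CPM or more in every Lyso library and at 0, 0 and 0.118 CPM in WT, a ratio of 23.8 over the groups' counts (95% counting interval 6.36 to 200.0). In the relapsed lines Xist was between 0.120 and 0.154 CPM. The source of this RNA was not tested.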

How the results depend on the processing

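Among 120 called genes named or listed here, 48 kept their call under every alternative run and 70 under all but WT 3 alone and glmTreat, and none changed direction. The 362 higher genes became 173 with WT 3 as the only control, 111 with glmTreat and 567 without a filter on low counts. The 86 lower genes became 50 with WT 1 and WT 2 as the only controls, 181 at the adjusted p alone, 10 with glmTreat and 262 without the filter. With the replicate number as a block, 309 genes were higher and 54 lower. Same-numbered WT and Lyso libraries did not deviate together (correlations between -0.01 and 0.01), and other-numbered ones lay between -0.02 and 0.03. No pairing by number was seen. With 3 libraries per group and shallow WT 1 and WT 2, this measure cannot exclude it. Leaving out 1 library at a time gave 236 to 382 higher genes, the fewest without Lyso 1, and 30 to 131 lower genes, with 39 without Lyso 1, 31 without Lyso 2, 30 without Lyso 3, 50 without WT 3 and 131 without WT 1. DESeq2 called 407 higher and 117 lower genes, and library size as the only scaling 311 and 123. The cause of these changes was not tested. Some genes that were not called changed sign: against WT 3 alone Isg15 was at -0.04, Usp18 at -0.41, Tyrp1 at 0.19, Atf4 at 0.49 and Trib3 at 1.06, and with 1 library left out Tyrp1 ranged from -0.14 to 0.10, Atf4 from -1.18 to 0.27 and Trib3 from -3.41 to 1.08, the highest each time without WT 1. WT 1 and WT 2 held too few counts to detect genes under 1.70 and 1.27 CPM.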
